A study of Mus musculus with 4 samples.

Results

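A set of 10 heat-shock genes, Hspa1a, Hspa1b, Hspa8, Hspa9, Hspb1, Dnajb1, Dnaja1, Bag3, Hsph1 and Hspd1, were followed through single-cell RNA-seq libraries of Dalton's Lymphoma Ascites (DLA) tumours grown in Swiss albino mice. They were chosen by symbol, as 10 of the 32285 features counted, for their place in the heat-shock response. No measured value enters the rule for the genes, but they were chosen with earlier results of these data known. The 4 libraries comprised 2 control tumours (Control 1 and 2), which the labels call untreated and the study's supplement vehicle controls, and 2 tumours of mice given oral SP11, an HSP90 inhibitor, for 17 days at 30 mg/kg (Treated 1 and 2). All mice of both groups carried DLA cells injected into the peritoneum. The study's methods call the 2 sets independent, but nothing states how many mice stand behind a library, so p-values measure only the spread between these libraries.

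HSF1 is the transcription factor of the heat-shock response. In resting cells it is held inactive in part by HSP90, and when HSP90 is inhibited or proteins unfold, HSF1 binds heat-shock elements in promoters and switches on chaperone genes. Induction of Hsp70 is therefore widely used as a pharmacodynamic marker of HSP90 inhibitors. Hspa1a and Hspa1b encode the stress-inducible Hsp70, Dnajb1 the main inducible Hsp40 partner, Hspb1 the small heat-shock protein Hsp27, Hsph1 the nucleotide exchange factor Hsp110, and Bag3 a co-chaperone that links Hsp70 to autophagy. These 6 were treated as the inducible members. Hspa8 encodes the constitutive Hsp70 of the cytosol, Hspa9 the mitochondrial Hsp70, Hspd1 the mitochondrial chaperonin Hsp60 and Dnaja1 a cytosolic Hsp40. These 4 were treated as the constitutive members, in the sense of a high basal level only, since HSF1 also acts on several of them.

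The promoters were read first, since the heat-shock element is what ties these genes to HSF1. RefSeq windows of the 250 bases before a start site (build GRCm38.p6) were found for 8 of the 10 members, in 13 windows, but not for Hspa8 and Hspa9. A heat-shock element is a run of inverted nGAAn units, and a pair of such units was searched on both strands as GAANNTTC or TTCNNGAA, and 3 units as GAANNTTCNNGAA, whose matches also hold the pair. The pair occurred in 6 of the 8 members, 4 inducible (Hspa1a, Hspa1b, Hspb1 and Hsph1) and 2 constitutive (Dnaja1 and Hspd1), against 14.5% of all 27025 genes with a window. The run of 3 units occurred in 1 member, Hspd1, against 0.514% of genes. The windows of Hspa1a, Hspa1b, Hspb1 and Hspd1 are shown because these genes carry the contrasts described below, with the matched units in capitals and each strand read towards its gene.
Hspa1a, chr17:34972157-34972406, minus strand: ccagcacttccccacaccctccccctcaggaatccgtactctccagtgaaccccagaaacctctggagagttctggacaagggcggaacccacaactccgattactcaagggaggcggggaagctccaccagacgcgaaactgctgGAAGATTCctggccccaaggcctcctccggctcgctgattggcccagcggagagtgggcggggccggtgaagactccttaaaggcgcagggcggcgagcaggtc
Hspa1b, chr17:34959239-34959488, minus strand: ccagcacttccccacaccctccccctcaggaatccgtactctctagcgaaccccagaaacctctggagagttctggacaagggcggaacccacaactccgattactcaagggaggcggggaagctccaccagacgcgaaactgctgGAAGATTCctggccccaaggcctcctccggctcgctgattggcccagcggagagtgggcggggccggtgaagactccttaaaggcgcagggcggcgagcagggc
Hspb1, chr5:135887669-135887918, plus strand: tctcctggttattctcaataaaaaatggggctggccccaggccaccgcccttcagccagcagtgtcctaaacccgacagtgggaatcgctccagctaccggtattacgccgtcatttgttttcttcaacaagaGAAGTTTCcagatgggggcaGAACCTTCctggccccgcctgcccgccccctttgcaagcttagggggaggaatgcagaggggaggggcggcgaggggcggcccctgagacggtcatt
Hspd1, chr1:55088053-55088082, minus strand, 30 bases only: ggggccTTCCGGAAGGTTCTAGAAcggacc
The Hspa1a and Hspa1b windows differed at 3 of 250 positions and carried the same single pair, starting 104 bases before the start site. Hspb1 carried 2 separate pairs, starting 117 and 97 bases before its start site. In Hspd1 the matched run was 18 bases long. A match says only that these letters are present, and CCAAT, searched on both strands, occurred in 5 of the 8 members and 37.5% of genes.

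After filtering, 916, 566, 1831 and 1091 barcodes remained in Control 1 and 2 and Treated 1 and 2. Barcodes with at least 5 UMIs of the keratins Krt8 and Krt18 were taken as tumour cells, 845, 528, 1256 and 582 per library, with 9477943 to 12287495 UMIs summed in each. The labels name these cells lymphoma. They held a UMI of 7 of 8 epithelial markers, with Cldn7 at 0. Those markers summed to 4160 to 7471 CPM (UMIs after scaling a cell class in a library to 1000000 UMIs). Krt8 and Krt18, which set the gate, are among these markers and made up 2429 to 4723 CPM of the sums. The 10 T lineage markers summed to 1.06 to 10.3 CPM and the 8 B lineage markers to 1.04 to 112. In Treated 1 all 10 T and all 8 B lineage markers also had a UMI. The cells are called tumour cells here for their gate. RNA of other cells was present in them, and more so after SP11, with hemoglobin and other erythroid markers at 178 and 267 CPM in control libraries and 4740 and 10615 in the SP11 libraries. Of 4353 distinct barcodes, 896 occurred in 2 or more libraries, and results were also computed without them.

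Neither stress-inducible Hsp70 gene stood out in tumour cells of SP11-treated mice. Hspa1a (ENSMUSG00000091971, chr17:34969190-34972156, build GRCm38, overlapped by the antisense gene Gm20481) gave 0 UMIs in both control libraries, 2 UMIs in Treated 1 and 0 in Treated 2. A count of 0 allows up to 0.311, 0.317 and 0.247 CPM in Control 1, Control 2 and Treated 2. Hspa1a was thus at the limit of detection in every library and did not pass the filter on low counts. Hspa1b (ENSMUSG00000090877, chr17:34956436-34959238) gave 6, 30, 23 and 53 UMIs in Control 1 and 2 and Treated 1 and 2, or 0.622, 3.17, 1.87 and 4.37 CPM. The groups overlapped, Control 2 lying above Treated 1, and the log2 fold change was 0.59 (SE 0.50, 95% interval -0.46 to 1.64, adjusted p = 0.63). That interval reaches from a 0.725-fold to a 3.12-fold level. The 2 genes encode nearly the same protein, and their transcripts share 49.3% and 52.3% of their 90-base stretches. They shared no such stretch in the last 500 bases, where 3′ libraries mostly read, so most reads there can be told apart.

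Among the other inducible members Bag3 had the largest difference. Bag3 (ENSMUSG00000030847, chr7:128523616-128546981) stood at 9.54 and 8.97 CPM in control libraries and at 12.5 and 15.0 in the SP11 libraries. Both SP11 libraries lay above both controls, with a log2 change of 0.44 (SE 0.17, 95% interval 0.08 to 0.80), an unadjusted p of 0.0195 and an adjusted p of 0.227. Over the 14 alternative settings its adjusted p ran from 0.0701 to 0.786, so it was not called in any of them. Hsph1 (ENSMUSG00000029657, chr5:149614287-149636376) stood at 49.2 and 64.0 CPM in control libraries and at 66.9 and 70.2 after SP11, a log2 change of 0.15 (SE 0.13, 95% interval -0.13 to 0.43, adjusted p = 0.648). Both SP11 libraries were again above both controls, but Control 2 and Treated 1 lay close to each other.

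The main Hsp40 partner and Hsp27 showed still less. Dnajb1 (ENSMUSG00000005483, chr8:83608193-83612653) was nearly flat, at 147 and 142 CPM in control libraries and 148 and 154 after SP11. Its log2 fold change was -0.06 (SE 0.12, 95% interval -0.32 to 0.19, adjusted p = 0.86), and it turned to 0.06 when libraries were scaled by their totals. The upper end of that interval is a 1.14-fold level, for this textbook HSF1 target under TMM scaling. Hspb1 (ENSMUSG00000004951, chr5:135887919-135889563) stood at 360 and 512 CPM in control libraries and at 529 and 431 after SP11. The groups overlapped, and the log2 fold change was 0.02 (SE 0.17, 95% interval -0.33 to 0.38, adjusted p = 0.964).

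**Figure D1:**
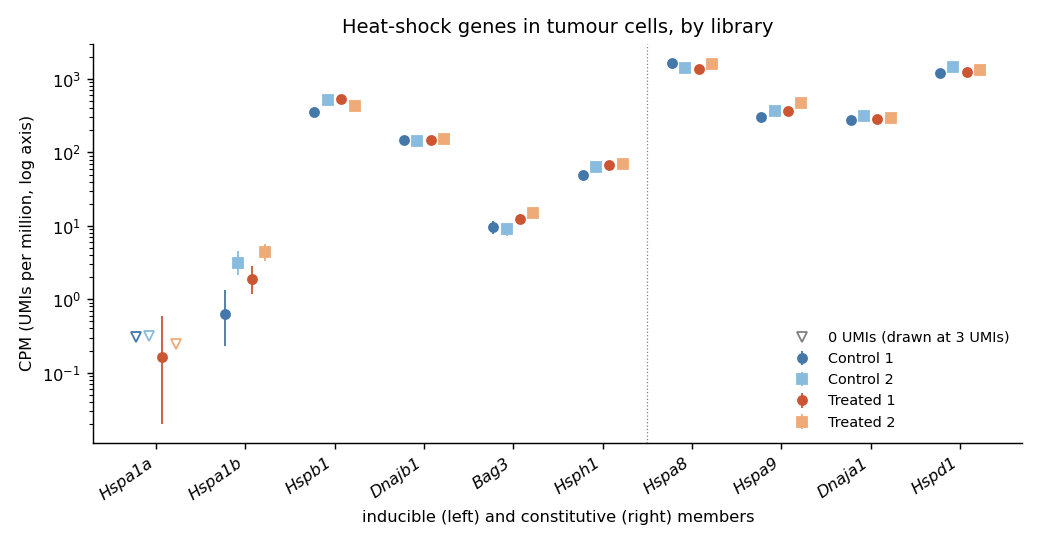
Level of each of the 10 heat-shock genes in tumour cells, in CPM on a log axis, in 2 control (blue) and 2 SP11 libraries (orange), with exact Poisson 95% intervals for counting error; open triangles mark 0 UMIs, drawn at the level of 3 UMIs. Hspa1a sits at the limit of detection, Bag3 is the gene with the clearest gap between groups (9.54 and 8.97 against 12.5 and 15.0), and the constitutive members overlap between groups.

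The constitutive members overlapped between groups in every case. Hspa8 (ENSMUSG00000015656, chr9:40800984-40810087) stood at 1674 and 1412 CPM in control libraries and at 1372 and 1578 after SP11 (log2 fold change -0.20, SE 0.15, adjusted p = 0.573). Hspd1 (ENSMUSG00000025980, chr1:55077835-55088243) stood at 1201 and 1461 in the controls and at 1235 and 1344 after SP11 (log2 fold change -0.17, SE 0.14, adjusted p = 0.621). Hspd1 shares its start region with Hspe1, its co-chaperonin on the opposite strand. Dnaja1 (ENSMUSG00000028410, chr4:40722150-40737149) stood at 280 and 311 in the controls and at 284 and 296 after SP11 (log2 fold change -0.15, SE 0.13, adjusted p = 0.614). Hspa9 (ENSMUSG00000024359) stood at 303 and 370 in the controls and at 362 and 466 after SP11 (log2 fold change 0.17, SE 0.14, adjusted p = 0.619). Treated 2 was thus the highest library for Hspa9, while Control 1 was the highest for Hspa8.

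In all, 9 of the 10 members passed the filter on low counts and 0 of the 9 were called between SP11 and control tumour cells by edgeR's quasi-likelihood test, against 2.31% of the 11588 genes tested. At an unadjusted p below 0.05, edgeR picked 1 of the 9 (Bag3) and DESeq2 0, with 0 called by DESeq2 after adjustment. In CPM, 3 of the 9 (Dnajb1, Bag3 and Hsph1) had both SP11 libraries above both controls, against 36.8% of all genes tested, and 0 had both below, against 8.12%. The share of 3 in 9 is near that background. Scaling by library totals in place of TMM moved the median gene by 0.13 on the log2 scale, so unscaled levels lean towards SP11. Counts without the tumour cells that met an immune gate, and without shared barcodes, also gave 0 called members.

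The ratio of inducible to constitutive members gave the same picture within each library, free of scaling. The log2 ratio of their summed UMIs was -2.61 and -2.28 in control tumour cells and -2.10 and -2.45 after SP11. The means were -2.45 ± 0.23 and -2.27 ± 0.25 (SD, n = 2 libraries each), and the groups overlapped, Control 2 lying above Treated 2. The difference of 0.17 was smaller than either SD. Most inducible UMIs were Hspb1, and without it, a choice made after the values were seen, the log2 ratio was -4.06 and -4.03 in controls and -3.82 and -3.92 after SP11, so that both SP11 libraries lay above both controls. No test was made of these ratios.

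The wider chaperone network was as flat between groups. Of 59 relatives of the members (other Hsp70, Hsp40, small heat-shock, BAG and co-chaperone genes), 53 were tested and 0 were called, with 5 at an unadjusted p below 0.05. Of 25 genes of the HSF1 pathway (HSF1 and HSF2, HSP90, its co-chaperones, the CCT chaperonin and stress targets such as Hmox1), 24 were tested, 0 were called and 1 was below 0.05 unadjusted. Of 14 immediate-early genes known to rise when tissue is dissociated, all 14 were tested, 0 were called and 5 were below 0.05 unadjusted. DESeq2 called 0 of these 91 tested genes too, with 8 at an unadjusted p below 0.05. The median log2 fold change was -0.10 over the relatives, -0.11 over the HSF1 pathway and 0.07 over the dissociation genes, against -0.0039 over all genes tested. The HSP90 genes themselves, Hsp90aa1 and Hsp90ab1, had log2 fold changes of 0.07 (SE 0.15, adjusted p = 0.867) and -0.02 (SE 0.15, adjusted p = 0.968), and Hsf1 one of 0.13 (SE 0.18, adjusted p = 0.797).

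Cell type separated these genes more than SP11 did. Monocytes and macrophages were gated on at least 3 UMIs of 8 marker genes with fewer than 5 keratin UMIs, which gave 23, 17, 77 and 83 barcodes in Control 1 and 2 and Treated 1 and 2, with 43836, 49018, 107321 and 223795 UMIs. These cells carried all 9 myeloid markers in every library, most of them also used for the gate, at a summed 4692 to 11936 CPM. Keratin UMIs in them stood at 8.21%, 15.1%, 7.91% and 4.98% of the tumour cell level in the same libraries. They are given beside the members as a rough measure of tumour RNA in these sums. The gates themselves hold the keratins low here and high in tumour cells, so this percentage may understate the tumour RNA. In edgeR's test with the library as a block, 7 of the 9 members that passed the filter differed from tumour cells, against 38.6% of the 10339 genes tested, 6 of them lower and 1 higher. The background was 23.8% lower and 14.9% higher, with a median log2 fold change of -0.57 over all genes and -1.08 over the 9 members, so differences are read against that median.

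Hspa1a, which stood at the limit of detection in tumour cells, was detected in the gate of every library. The 4 monocyte and macrophage sums held 1, 1, 1 and 7 UMIs of Hspa1a, or 22.8, 20.4, 9.32 and 31.3 CPM, in Control 1 and 2 and Treated 1 and 2. Every library was above its own tumour cells, which held 0, 0, 2 and 0 UMIs among at least 9477943 each. Pooled, the gate held 10 UMIs in 423970 and the tumour cells 2 in 43542119, a ratio of 514 with a counting interval of 109 to 4820. Both tumour UMIs came from Treated 1 and 7 of the 10 in the gate from Treated 2, and without Treated 2 the ratio was 235 (27.0 to 2818), on 3 UMIs against 2. In Treated 2 the 7 UMIs came from 6 of 83 barcodes, with at most 2 in 1 barcode. Hspa1a failed the filter on low counts in this gate. In the fit without that filter it was called (adjusted p = 4.9e-07), with a fitted fold that depends on the prior count. With Lyz2 added to the gate genes, a setting made after the data were seen, it passed the filter and was called higher. There it held 13 UMIs against 2 in tumour cells, so it entered the test through the gate's own counts. That call therefore adds no support of its own. The pooled level in tumour cells was 0.046 CPM.

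Hspa1b was higher as well, on fewer counts than the call alone conveys. It gave 1, 2, 0 and 4 UMIs in the gate, or 22.8, 40.8, 0 and 17.9 CPM, against 0.622, 3.17, 1.87 and 4.37 in tumour cells. It was above tumour cells in 3 of 4 libraries and at 0 in Treated 1. The log2 fold change was 2.45 (SE 0.89, 95% interval 0.72 to 4.19, adjusted p = 0.0177), and its adjusted p ran from 0.00189 to 0.192 over the alternatives. The call was lost without Control 1 (0.0871), without Control 2 (0.141), without Treated 2 (0.178) and without shared barcodes (0.192). Pooled, the ratio of 7 UMIs to 112 came to 6.42 times the tumour level with a counting interval of 2.52 to 13.7. Bag3, with 0, 1, 4 and 6 UMIs in the gate, had a log2 change of 0.91 (SE 0.60, adjusted p = 0.228).

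The mitochondrial chaperones and Hsp27 were the lowest in the gate. Hspd1 stood at 365, 286, 205 and 197 CPM in Control 1 and 2 and Treated 1 and 2, against 1201 to 1461 in tumour cells, a log2 change of -2.59 (SE 0.21, adjusted p = 1.57e-33). Its level was 30.4%, 19.6%, 16.6% and 14.6% of that in tumour cells of the same library. Hspa9 had a log2 change of -2.03 (SE 0.28, adjusted p = 2.82e-12), with 114, 61.2, 130 and 103 CPM in the gate. Both genes were below tumour cells in all 4 libraries, with no overlap between the cell classes. Hspb1 was the most uneven, with 0, 15, 17 and 14 UMIs or 0, 306, 158 and 62.6 CPM. Its log2 fold change was -2.17 (SE 0.26, adjusted p = 3.75e-15), and 14 alternatives kept it between -2.95 and -1.95. At 59.8% of the tumour level in Control 2 and 14.5% in Treated 2, it lay above the keratins in 3 of 4 libraries, and the part of free tumour RNA in these levels was not tested.

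The cytosolic Hsp40 and Hsp110 followed with smaller gaps. Dnajb1 stood at 91.2, 102, 46.6 and 71.5 CPM in the gate, below tumour cells in every library, with a log2 change of -1.19 (SE 0.33, adjusted p = 0.00168). Hsph1 had a log2 change of -1.08 (SE 0.45, adjusted p = 0.0428) on 2, 1, 4 and 7 UMIs. Its call was lost under 8 of 14 alternatives, among them DESeq2 (adjusted p = 0.101, in a range of 0.00618 to 0.202) and the fits without Control 2 (0.0595), without Treated 1 (0.134) or without Treated 2 (0.202). Hspa8 stood at 1163, 938, 1239 and 1193 CPM in the gate, a log2 change of -0.61 (SE 0.17, adjusted p = 0.00149). This is close to the median gene at -0.57, and its call was lost with DESeq2 (0.0655) and with library totals (0.0852), in a range from 9.74e-06. Dnaja1, at 251, 265, 186 and 282 CPM, had a log2 change of -0.43 (SE 0.24, adjusted p = 0.145). Relative to the median gene, then, the cytosolic Hspa8 and Dnaja1 stood about where most genes did and the mitochondrial Hspd1 and Hspa9 far below.

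**Figure D2:**
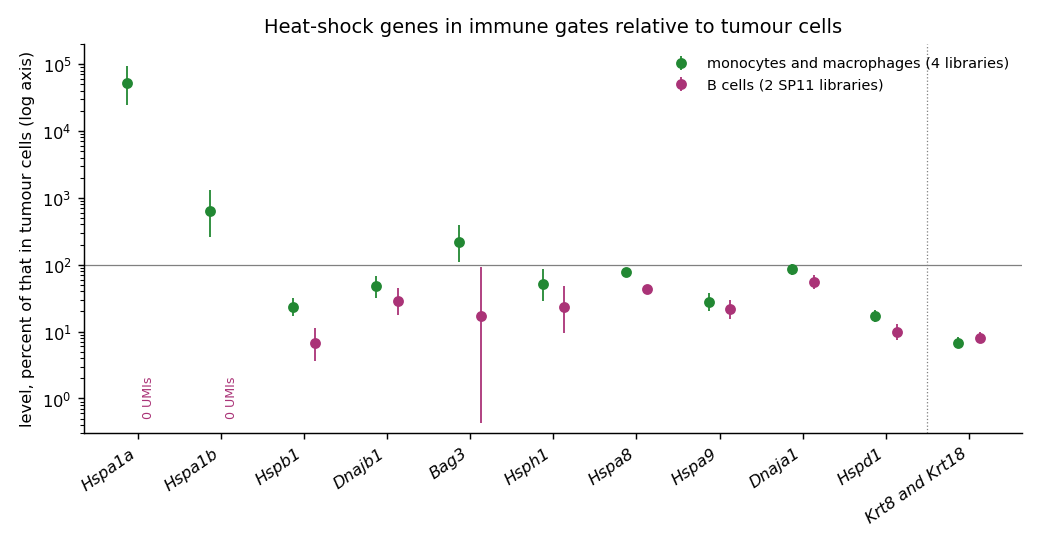
Level of the 10 heat-shock genes and of the tumour keratins Krt8 and Krt18 in 2 immune gates, as percent of the level in tumour cells of the same libraries, on a log axis; points are pooled sums and bars their Poisson 95% counting intervals. Hspa1a, Hspa1b and Bag3 lie above the line of 100% in monocytes and macrophages, Hspd1, Hspa9 and Hspb1 lie at 17.3% to 28.0%, and the keratins, which these cells should lack, at 6.86%.

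Other genes of the network split in the same comparison. Among the 52 relatives tested 1 was higher (Dnajb14, log2 fold change 1.14, adjusted p = 0.036) and 19 were lower, or 38.5% against the 38.6% background. The most certain of these was Hspe1, the co-chaperonin of Hspd1, at -2.06 (adjusted p = 1.7e-25). Hspa4, an Hsp110 relative, stood at -1.72 and Grpel1, the mitochondrial exchange factor of Hspa9, at -1.55. Of 24 HSF1 pathway genes 15 were lower and 3 higher. The lower ones included Hsp90aa1 (-2.37), Hsp90ab1 (-1.78), the HSP90 co-chaperone Fkbp4 (-2.65) and the chaperonin subunits Cct3 (-2.13), Cct5 (-1.91) and Cct6a (-1.80). The higher ones included the ubiquitin gene Ubb (2.42) and the haem oxygenase Hmox1 (3.12). All 14 dissociation genes were higher, with a median log2 fold change of 2.997, led by Fos (5.45), Atf3 (5.91) and Btg2 (5.88). Their summed level was 5201 to 7230 CPM in the gate and 767 to 870 in tumour cells. The tumours had been minced and digested with collagenase and DNase, and the part of this step in the Hspa1a and Hspa1b levels was not tested.

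B cells gave the contrast to the myeloid cells, though nearly all came from SP11 libraries, with 160 in Treated 1 and 147 in Treated 2 against 1 and 0 in the controls. Hspa1a and Hspa1b gave 0 UMIs in the 431867 of the B cell gate, which allows up to 6.95 CPM for each. Such limits are the level of 3 UMIs, and the 2-sided counting interval reaches 8.54 CPM here. The pooled level in monocytes and macrophages was 23.6 for Hspa1a, with a counting interval from 11.3, and 16.5 for Hspa1b, with an interval from 6.64 that reaches below that limit. By library, Hspa1a in the gate was at 31.3 in Treated 2 against a B cell limit of 11.4, but at 9.32 in Treated 1 against a limit of 17.8, so Treated 2 alone carried the contrast. These values by library leave out the counting error of the gate's own few UMIs. Hspb1 stood at 65.3 and 11.4 CPM in Treated 1 and Treated 2, or 6.76% of the tumour level when pooled (interval 3.70 to 11.3%), beside 8.15% for the keratins. It was at 12.3% beside 10.1% for the keratins in Treated 1 and at 2.65% beside 6.95% in Treated 2, and the part of free tumour RNA in it was not tested. Hspd1 stood at 9.90% with an interval of 7.45 to 12.9%. Hspa8 at 43.6%, Dnaja1 at 55.2%, Dnajb1 at 29.1% and Hspa9 at 21.9% of the tumour level had intervals above that of the keratins, which the gate holds low. T cells (10, 1, 17 and 82) and neutrophils (4, 2, 6 and 40) gave 0 UMIs of Hspa1a and Hspa1b, among only 104641 and 42964 UMIs, which allow up to 28.7 and 69.8 CPM.

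SP11 against control was not tested in the monocyte and macrophage gate, which held only 17 barcodes in Control 2, under the minimum of 20. Of the 9 members that passed the filter in the gate, 2 (Hspa8 and Bag3) had both SP11 libraries above both controls in CPM, against 23.5% of genes, and 3 (Hspa1b, Dnajb1 and Hspd1) had both below, against 11.6%. Hspd1 was at 365 and 286 CPM in controls and 205 and 197 after SP11, and Dnajb1 at 91.2 and 102 against 46.6 and 71.5. Hspa8 was at 1163 and 938 in controls and 1239 and 1193 after SP11, while Hspa1a, with 1 UMI in 3 of the libraries, overlapped. Other RNA in the gate moved with the group too, erythroid markers being at 205 and 347 CPM in control and 67955 and 62539 CPM in SP11 libraries, Lyz2 at 3445 and 2224 against 7100.2 and 7753, and the keratins at 388 and 367 against 289 and 161. Their part in these levels was not tested. A wider gate that also counts Lyz2, set after the data were seen, held 35, 21, 214 and 137 barcodes and was tested, with erythroid markers at 259 and 298 CPM against 65859 and 55621. Of the 6 members that passed its filter 0 were called, against 10.8% of 2447 genes, with 0 at an unadjusted p below 0.05 in edgeR and in DESeq2. Dnajb1 had a log2 change of -0.66 (95% interval -1.77 to 0.45, adjusted p = 0.516), Hspd1 of -0.38 (-1.10 to 0.33, adjusted p = 0.571) and Hspa8 of 0.29 (-0.15 to 0.74, adjusted p = 0.458). These intervals are wide, so 0 calls does not show that the members did not change. Of the other lists, 0 of 18 relatives were called, 2 of 20 HSF1 pathway genes were lower, and 3 of 13 dissociation genes were higher and 1 lower. The pathway genes were Hmox1 at -1.63 (adjusted p = 0.00234), whose call was lost without Control 1 and without shared barcodes, and Ubb at -0.80 (adjusted p = 0.019), whose call was lost without any 1 library, without shared barcodes, with at least 500 genes, with library totals and with no filter. The dissociation genes were Egr1 (1.64), Dusp1 (1.80), Nr4a1 (2.60) and Jun (-0.77). The call of Egr1 was lost without Control 1, that of Dusp1 without Control 2, and those of Nr4a1 and Jun under DESeq2 among others. The difference between the SP11 effects in this gate and in tumour cells was called for 0 of the 10 members, against 0.942% of 11471 genes, with 1 below 0.05 unadjusted in edgeR and 0 in DESeq2. That gene was Hspa8, at 0.71 (SE 0.23, unadjusted p = 0.00178, adjusted p = 0.127), and its adjusted p ran from 0.0117, without shared barcodes, to 1. The 95% interval of the difference was -0.32 to 1.55 for Hspa9, -1.46 to 0.70 for Dnajb1 and -1.99 to 3.14 for Bag3, so this test bounds little. Of the dissociation genes, Egr1 (2.35) and Dusp1 (1.79) were called in it, but neither was called without Treated 1 or without Treated 2, nor Dusp1 with DESeq2 or library totals, and 0 genes of the other lists were.

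Within tumour cells, Hspb1 was lower and Hspa8 and Hspa9 were higher in the cells with more mitotic RNA, and the other 6 tested members were not called. Tumour cells were split in each library at the median share of UMIs on 10 mitotic genes, none of them a member. The resulting classes, mitotic-high and mitotic-low, were compared within libraries. Mitotic-high cells also held more UMIs, with medians of 12562.5, 20130, 10301 and 22426 in Control 1 and 2 and Treated 1 and 2. The mitotic-low medians were 9793, 15637, 7719 and 18163, and the part of this difference in the results was not tested. Of the 9 members tested, 2 were higher and 1 lower in the mitotic-high cells, against 9.54% higher and 12% lower of 10393 genes. Hspb1 stood at 311, 475, 518 and 407 CPM in the mitotic-high cells of Control 1 and 2 and Treated 1 and 2 and at 419, 562, 545 and 460 in the mitotic-low cells. It was lower in all 4 libraries, with a log2 change of -0.28 (SE 0.03, adjusted p = 2.39e-10). The gap was widest in Control 1 (-0.43) and narrowest in Treated 1 (-0.07). That range is wide beside the SE, which edgeR draws in part from other genes, so the p-value overstates how alike the libraries were.

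Hspa8 moved the other way, at 1819, 1480, 1452 and 1701 CPM in mitotic-high and 1498, 1320, 1266 and 1425 in mitotic-low cells. It was higher in all 4 libraries by 0.16 to 0.28, with a fitted log2 fold change of 0.17 (SE 0.02, adjusted p = 1.58e-08). Hspa9 was higher in all 4 by 0.09 to 0.22, with a fitted change of 0.10 (SE 0.03, adjusted p = 0.00929). That call was lost with DESeq2 (adjusted p = 0.199) and without Control 1 (0.0555), in a range from 6.83e-06. Dnajb1 was at 0.10 (SE 0.04, adjusted p = 0.0721), Hsph1 at 0.10 (SE 0.06, adjusted p = 0.261), Bag3 at 0.23 (SE 0.13, adjusted p = 0.209) and Hspa1b at 0.44 (SE 0.29, adjusted p = 0.322). Dnaja1 at -0.02 and Hspd1 at -0.05 turned positive with library totals (0.04 and 0.01) and were not called, though Hspd1 was called lower without Control 2 (adjusted p = 0.0109). Dnajb1 was called with library totals (0.00146), with no filter on low counts (0.0317) and without Control 1 (0.0212). Of the relatives 3 were higher, among them the testis-rich Hsp110 gene Hspa4l (0.58), and 8 were lower, among them Bag2 (-0.44) and Hspe1 (-0.17). Of the HSF1 pathway 3 were higher and 11 lower, and Hsp90aa1 (0.07, adjusted p = 0.00584) and Hsp90ab1 (-0.13, adjusted p = 3.65e-09) took opposite signs. Dissociation genes were 0 higher and 6 lower of 14. The balance of directions depends on scaling, since library totals gave 11 higher and 4 lower relatives and 6 higher and 7 lower pathway genes, and DESeq2 gave 1 and 4 and 0 and 8.

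**Figure D3:**
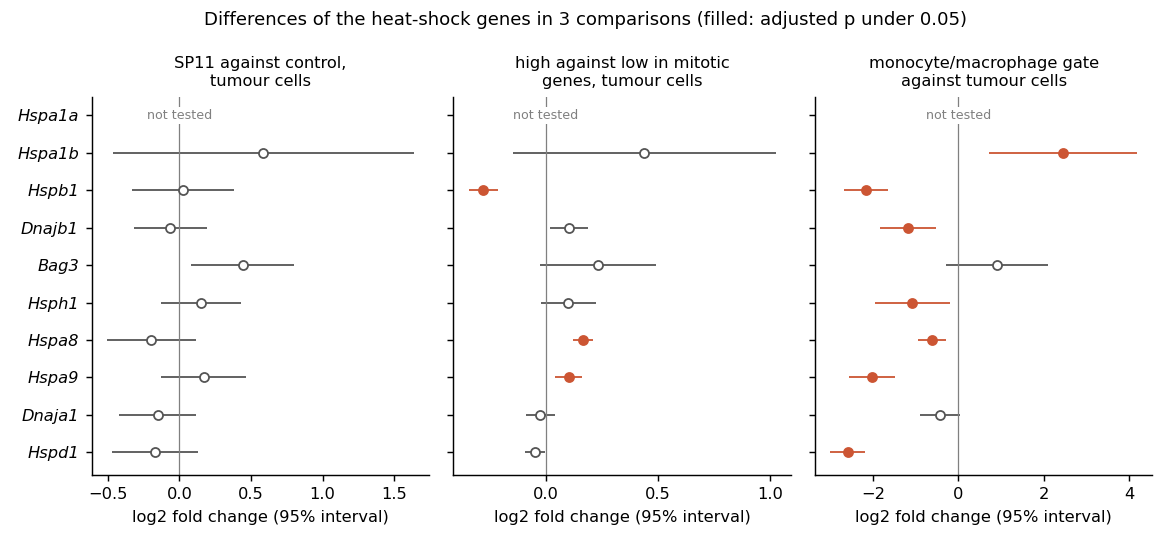
Log2 fold change of each heat-shock gene with its 95% interval in 3 comparisons, each panel with its own scale: SP11 against control tumour cells, tumour cells high against low in mitotic genes, and the monocyte and macrophage gate against tumour cells; filled points passed an adjusted p of 0.05. No gene is filled in the first panel, Hspb1, Hspa8 and Hspa9 are in the second, and 7 are in the third, with Hspa1b the only filled point to the right of 0.

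Hspb1 was also the member that differed most from cell to cell. With tumour cells thinned to 5000 UMIs each (799, 511, 1151 and 575 cells), the variance of Hspb1 UMIs was 4.57, 2.46, 3.99 and 2.98 times its mean in Control 1 and 2 and Treated 1 and 2, a quantity known as the Fano factor and equal to 1 for pure counting noise. The median gene had 1.03 to 1.04, and Hspb1 was at the 99.5th percentile or above in each library among the 4589 to 5105 genes compared. The top 10% of cells held 31.5 to 40.9% of its UMIs, and 73.0 to 82.8% of cells had at least 1. The highest cell held 34, 14, 32 and 17 UMIs. Hspa8, at 1.45 to 1.76, and Hspd1, at 1.31 to 1.47, also exceeded the 90th percentile of genes, which was 1.14 to 1.18. Dnajb1, Hsph1, Hspa9 and Dnaja1 lay between 1.05 and 1.28, and all of these but Hsph1 passed the 90th percentile in some libraries and not in others. Bag3 and Hspa1b, with at most 2 UMIs in a cell, are too sparse for this measure. The SP11 and control libraries overlapped for Hspb1, the widest spread being in Control 1.

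Correlations of the members over cells were weak. Counting noise lowers such correlations, most for the sparse members, and its part was not tested. Over thinned cells, 36 of the 45 pairs had a correlation in every library, 5 were positive in every library and 0 exceeded 0.1 in every library. The most positive were Hspa9 with Hspd1, both mitochondrial, at 0.06 to 0.16, and Hspb1 with Dnajb1, at 0.06 to 0.07. Negative in every library were Hspb1 with Hspa9, at -0.14 to -0.03, and Dnajb1 with Bag3, at -0.04 to -0.0029. The genes whose UMIs went most with the summed inducible members were Fth1 (ferritin heavy chain), with a lowest r of 0.10 over the 4 libraries, then Chchd2, Rpl9, Rpl24 and Rpl41, of 4045 genes searched. These correlations are weak, are over cells that share a library, and describe the counts only.

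**Figure D4:**
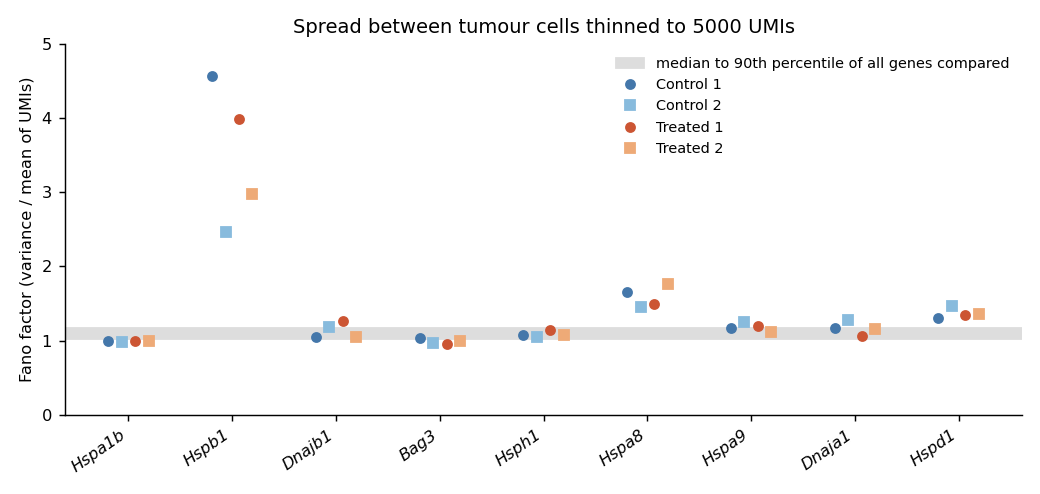
Fano factor (variance over mean of UMIs) of 9 heat-shock genes in tumour cells thinned to 5000 UMIs, by library, with the grey band spanning the median to the 90th percentile of all genes compared; Hspa1a is left out for want of counts. Hspb1 stands at 2.46 to 4.57 in all 4 libraries, Hspa8 and Hspd1 lie above the band in every library, and the others lie in, near or below it.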

How the data were processed

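The deposited files hold whole-number UMI counts per gene and barcode for each library, made by the authors with Cell Ranger (7.1.0 in the file headers); the processing notes name the build mm10 and the study's methods another. Totals per tumour cell sum were 9477943 to 12287495 UMIs, and intervals and limits cover counting error only. Barcodes with at least 200 genes and at most 10% mitochondrial UMIs were kept, and gated on marker UMIs. Doublets were not removed, and an alternative removed those with a Scrublet score over 0.25. UMIs were summed per library and class and tested with edgeR 4.0.16 (TMM, filterByExpr, quasi-likelihood F test, Benjamini-Hochberg over all genes tested, threshold 0.05), with the library as a block within libraries and after a test on simulated data. That test recovered 77.8% of 2-fold changes for SP11 in tumour cells and 87.9% between mitotic classes. It recovered 22.45% for the gate against tumour cells (49.5% of 4-fold changes) and 26.4% for SP11 in the wider gate. For the difference of SP11 effects it recovered 4.21%, and 14.1% of 4-fold changes. DESeq2 1.42.0 was an alternative. Named genes were the 10 members, up to 6 called genes per list and direction, and the 5 genes most correlated with the inducible sum; a few HSP90 and HSF1 genes were named besides, and not every called gene of a list is reported here. The members and lists were chosen with earlier results of these data known. Gene coordinates are those of GENCODE release M21 (GRCm38). Promoters are RefSeq's, matched by symbol.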

Additional observations from a re-analysis of the deposited data

How the results depend on the processing

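Of 532 member values recomputed under alternatives, 485 kept their direction and side of the threshold, 16 lost a call, 8 gained one and 23 reversed; the cause was not tested. With SP11 against control in tumour cells (210 genes higher, 58 lower), 135 were higher without called doublets and 135 without tumour cells that meet an immune gate, 104 with DESeq2 and 446 with library totals (60 lower). Library totals made the log2 change of Dnajb1 0.0649. Leaving out 1 library at a time gave 69 (without Control 2) to 345 (without Treated 2) higher and 9 (without Control 2) to 106 (without Treated 1) lower, and log2 changes of -0.14 to 2.15 for Hspa1b, -0.19 to 0.27 for Hspb1 and -0.0095 to 0.33 for Hsph1. With the replicate number as a block 654 were higher and 384 lower, with 0 members called. Same-numbered libraries deviated together in tumour cells at a correlation of 0.125 and in the wider myeloid gate at 0.0341, but with only 2 pairs and no shared batch stated the numbers are not shown to pair samples. Without 1 library the monocyte and macrophage gate differed from tumour cells in 920 (without Treated 2) to 1554 genes higher and 1533 to 2321 lower, from 1538 and 2456. Mitotic-high against mitotic-low cells (991 higher, 1243 lower) gave 359 and 514 with DESeq2 and 1563 and 721 with library totals, which turned Dnaja1 to 0.0355 and Hspd1 to 0.0114.

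In the wider myeloid gate, chosen after seeing the data as was its every alternative, SP11 against control (133 higher, 131 lower) gave 71 and 72 with at least 500 genes, 51 and 42 without shared barcodes, 32 and 80 with DESeq2, 61 and 54 with library totals, 49 lower without a filter on low counts, and 64 and 76 with the replicate block. Leaving out 1 library gave 45 to 94 higher and 26 to 91 lower, and log2 changes of -1.47 to 2.48 for Hspb1 and -0.095 to 0.35 for Dnaja1. The difference of the SP11 effects in this gate and in tumour cells (50 higher, 58 lower) gave 29 higher with at least 500 genes, 6 with DESeq2, 16 with library totals (120 lower) and 19 without a filter. It gave 0 to 25 higher and 0 to 44 lower without 1 library, with 0 in both directions without Treated 1. Among members it reversed for Hspb1 without shared barcodes (1.70), for Hsph1 with DESeq2 (-0.0404) and library totals (-0.16), and for Hspd1 at 20% mitochondrial UMIs, 500 genes and without shared barcodes (0.0125, 0.014 and 0.0049), and without 1 library it ran from -1.0026 to 2.48 for Hspb1, -0.54 to 1.33 for Hsph1 and -0.30 to 0.24 for Hspd1. The planned SP11 test of the monocyte and macrophage gate and its alternatives were not run, since Control 2 held 17 barcodes. Thinning to 2000 UMIs gave mean Fano factors of 2.02 for Hspb1 and 1.23 for Hspa8, from 3.50 and 1.59. The inducible to constitutive difference of 0.17 ran from -0.0035 to 0.346 without 1 library. Depth limits Hspa1a and Hspa1b, and in the gates all members.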
